A study of Danio rerio with 4 samples.

Results

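The genes described here are 9 established transcriptional targets of p53, namely *mdm2*, *mdm4*, *cdkn1a*, *ccng1*, *rps27l*, *phlda3*, *tp53inp1*, *zmat3* and *fdxr*. They were found in the count table by matching Ensembl identifiers to these zebrafish symbols, case ignored, which gave 9 gene models out of 28290, 1 for each symbol. The RNA, selected by its poly-A tail, came from entire wild-type embryos of the zebrafish, *Danio rerio*, with 2 control libraries labelled untreated and 2 libraries of embryos exposed to SYP-3343, a compound known here by its code. Exposure was to 8 µg/L and lasted from 3 to 24 hours post-fertilization, and the title of the series asks about toxicity to development through reactive oxygen species and mitochondria. Each group is made of whole animals of all cell types at once, pooled in a number that the labels leave unclear beyond the 40 embryos of the design text.

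p53 is a transcription factor that cells stabilize after DNA damage, stalled ribosome assembly and other stresses. In unstressed cells the ubiquitin ligase Mdm2, together with its partner Mdm4, keeps p53 low, and because p53 switches on *mdm2* the pair forms a negative feedback loop. Other targets halt the cell cycle, damp growth signals, start cell death or alter metabolism, and in zebrafish embryos transcripts such as *cdkn1a*, *mdm2* and *ccng1* are commonly read as a sign of p53 activity.

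The libraries held 46165614 to 59054470 counts. Scaling factors were above 1 in controls (1.108 and 1.138) and below 1 in SYP-3343 (0.923 and 0.86), and the 20 most abundant genes of each library took 10.23% to 10.28% of control counts and 14.6% to 15.4% of SYP-3343 counts. All levels below are CPM, counts relative to library size after this scaling, given for replicates 1 and 2 of each group in that order, and means are ± SD. Fold changes are on the log2 scale, SYP-3343 minus control, ± SE from edgeR's quasi-likelihood fit, with n = 2 per group. The words rose and fell are kept for genes with an adjusted p under 0.05 over the 22647 genes tested. Of 30 gene models that mark tissues of the embryo, 0 were at 0 in any library. Of these models 11 rose (36.7%), led by the hatching gland genes *ctslb* and *he1.1* and the skin keratin gene *cyt1*. A single 1 fell (3.33%), the neuronal gene *NEUROD1*, where 16.6% of all genes tested rose and 15.3% fell. Another neuronal marker, *ELAVL3*, rose (0.36 ± 0.13, adjusted p = 0.0363), a call that ended under 9 alternatives, among them without control replicate 1 (adjusted p = 0.527) and without SYP-3343 replicate 2 (adjusted p = 0.154), the range being 4.25e-05 to 0.931. The summed level of the 30 was 12342 to 12986 CPM in controls and 21832 to 23884 CPM in SYP-3343. Its largest parts were the keratin genes *krt4*, with means of 4893 and 9395 CPM, and *cyt1*, with 2543 and 6627 CPM. Of the 30, 18 did not pass. The median log2 fold change over all 30 was 0.26. The part of tissue makeup in the results below was not tested. In such bulk RNA, a change in the number of cells of a type and a change in RNA per cell cannot be told apart. The labels do not say which clutches the replicates came from, so the p-values cover the spread between these 4 libraries and no more.

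In exposed embryos 7 of the 9 p53 targets rose, 0 fell and 2, *zmat3* and *fdxr*, did not pass. The risers ranged from 1.197-fold for *mdm4* to 2.39-fold for *rps27l*. Over all genes tested, 16.6% rose and 15.3% fell. The median log2 fold change of the 9 genes was 0.60, against -0.013 over all genes tested. The 9 were chosen with earlier results of these data known, so neither contrast is a test of the set. In 7 of the 9 both SYP-3343 libraries lay above both controls, a pattern found in 32.2% of all genes tested, and in 1, *fdxr*, both lay below, as in 33.7%. Scaling by library size alone, which moves the median of all genes to -0.35, left 5 of the 9 called higher, against 6.20% of all genes, and 2 called lower, against 41.4%. It moved the log2 fold change of each of the 9 genes by -0.331 to -0.334, which brought their median to 0.27, *mdm2* to 0.28, *ccng1* to 0.48 and *tp53inp1* to 0.27 (adjusted p = 0.0462 for *tp53inp1*).

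**Figure D1:**
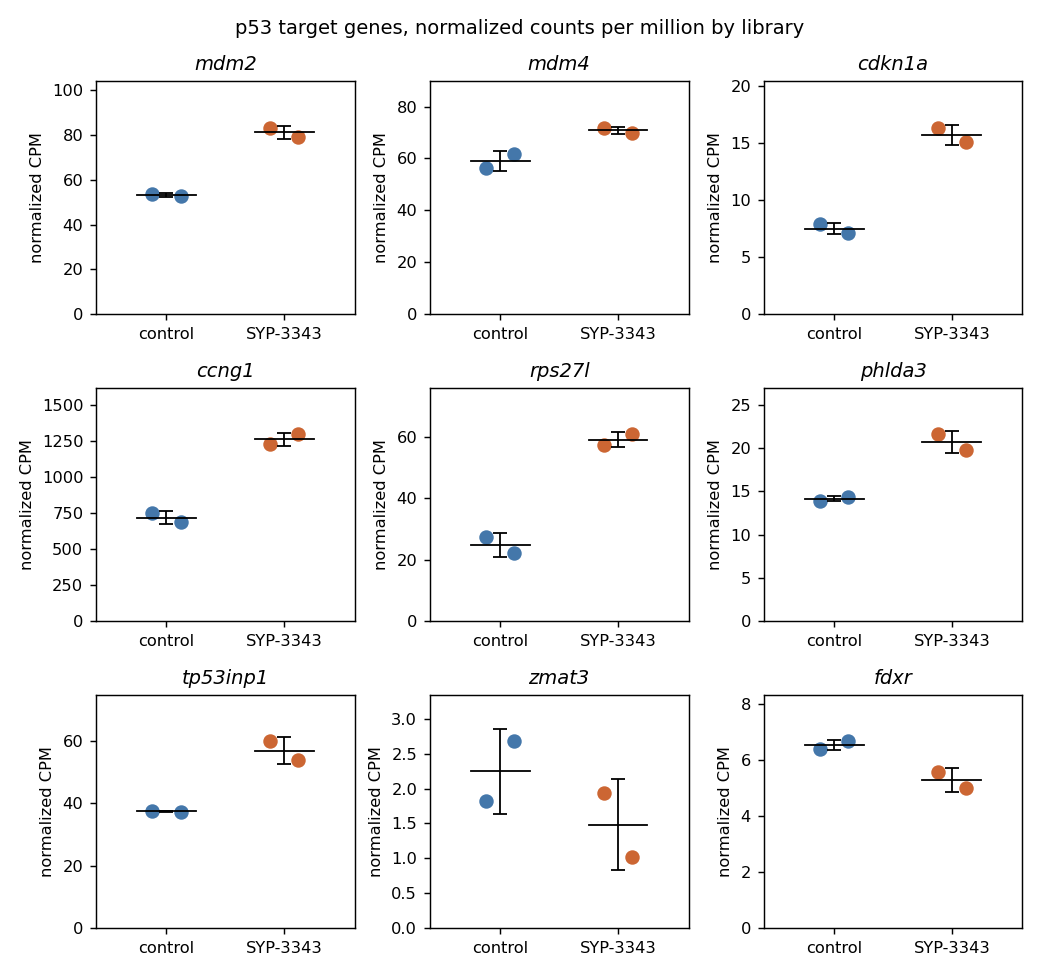
Normalized CPM (vertical axes, each from 0) of the 9 p53 target genes in each library. Points are libraries, lines the group means and bars the SD over 2 libraries; in 7 panels both SYP-3343 libraries lie above both controls (with library size alone the fold change of *mdm4* turns, to -0.074), *fdxr* lies slightly below and the *zmat3* groups overlap.

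The feedback regulators of p53 came first. *mdm2* (ENSDARG00000033443), the ubiquitin ligase that marks p53 for degradation, stood at 53.7 and 52.6 CPM in controls and at 83.2 and 79.0 CPM in SYP-3343. Both exposed libraries were higher and the groups were far apart beside the gap within each. The rise was 1.53-fold, with a log2 fold change of 0.61 ± 0.090 (adjusted p = 2.02e-05).

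*mdm4* (ENSDARG00000057513) encodes the Mdm2 relative that binds and masks p53 without marking it for degradation by itself. It stood at 56.5 and 61.8 CPM in controls and at 71.9 and 69.8 CPM in SYP-3343, so the groups did not overlap but lay close. Its log2 fold change was 0.26 ± 0.091, with a 95% interval from 0.07 to 0.45 (adjusted p = 0.0345). This call was weak. It ended with upper-quartile factors (adjusted p = 0.118), with no low-count filter (adjusted p = 0.0527), without control replicate 1 (adjusted p = 0.178), without SYP-3343 replicate 1 (adjusted p = 0.158) and without SYP-3343 replicate 2 (adjusted p = 0.0976), and with library size alone the value was -0.074 (adjusted p = 0.569, the range over its alternatives being 0.0184 to 0.569).

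Of the 9 targets, *cdkn1a* and *ccng1* act on the cell cycle. *cdkn1a* (ENSDARG00000076554) encodes p21, the inhibitor of cyclin-dependent kinases through which p53 halts cells before DNA replication. Its level was 7.88 and 7.16 CPM in controls and 16.4 and 15.1 CPM in SYP-3343, so both exposed libraries lay above both controls. The mean moved from 7.52 ± 0.511 to 15.7 ± 0.902 CPM, which is 2.09-fold and a log2 fold change of 1.07 ± 0.13 (adjusted p = 1.83e-06). *ccng1* (ENSDARG00000076667) encodes cyclin G1, a cyclin that recruits a phosphatase to Mdm2. It was read 38379 and 46180 times in controls and 55688 and 55664 times in SYP-3343, or 751 and 687 CPM against 1229.8 and 1296 CPM. Its rise of 1.76-fold (log2 fold change 0.81 ± 0.11, adjusted p = 1.04e-05) again left the groups well apart.

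*rps27l* (ENSDARG00000100513) showed the largest fold of the 9. It encodes a close relative of ribosomal protein S27 that binds Mdm2 in mammalian cells. The control libraries held 27.5 and 22.0 CPM and the SYP-3343 libraries 57.4 and 60.7 CPM, with a log2 fold change of 1.26 ± 0.11 (adjusted p = 9.52e-09). The S27 genes proper rose with it, and reads of such similar copies may be shared among them by the counting, so that the size of each rise is uncertain. *rps27.1* (0.88 ± 0.11, adjusted p = 3.52e-06) went from 572.4 to 1053.5 CPM and *rps27.2* (0.71 ± 0.11, adjusted p = 3.79e-05) from 459.8 to 752 CPM. For every 100 counts of *rps27.1*, the libraries held 4.54 and 4.08 counts of *rps27l* in controls and 5.73 and 5.50 in SYP-3343. For every 100 counts of *rps27.2* the controls held 5.64 and 5.10 and the SYP-3343 libraries 8.19 and 7.56. By either measure both exposed libraries were above both controls.

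*phlda3* and *tp53inp1* act on signalling and on p53 itself. *phlda3* (ENSDARG00000037804) encodes a small lipid-binding protein that holds back the survival kinase Akt, and stood at 13.9 and 14.3 CPM in controls and at 21.6 and 19.8 CPM in SYP-3343. It rose by 0.55 ± 0.11 on the log2 scale (adjusted p = 0.000672), a call that ended with library size alone (0.22, adjusted p = 0.172, the highest over its alternatives, the lowest being 0.000253). *tp53inp1* (ENSDARG00000028017) encodes a stress-induced nuclear protein that favours the form of p53 linked to cell death. Its 2 control libraries were nearly equal, at 37.6 and 37.2 CPM, and the SYP-3343 libraries stood at 59.9 and 53.8 CPM. The rise was 1.52-fold (log2 fold change 0.60 ± 0.094, adjusted p = 4.13e-05).

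The remaining pair of targets did not pass. *zmat3* (ENSDARG00000080021), whose product is a zinc finger protein that binds RNA, was the most thinly read of the 9, with 93 and 180 counts in controls and 88 and 44 in SYP-3343. At 1.82 and 2.68 CPM against 1.94 and 1.02 CPM its groups overlapped. The log2 fold change was -0.62, with a 95% interval from -1.27 to 0.04 (adjusted p = 0.145). It was called lower without control replicate 1 (-0.84, adjusted p = 0.0436), without SYP-3343 replicate 1 (-1.16, adjusted p = 0.0267) and with library size alone (-0.95, adjusted p = 0.026), the range over its alternatives being 0.026 to 0.679. *fdxr* (ENSDARG00000089369) encodes ferredoxin reductase, a mitochondrial enzyme that feeds electrons to ferredoxins for iron-sulfur cluster and steroid synthesis. Its level was 6.40 and 6.65 CPM in controls and 5.57 and 4.98 CPM in SYP-3343, without overlap. The log2 fold change was -0.31, with a 95% interval from -0.65 to 0.04 (adjusted p = 0.168), and with library size alone it was -0.64 and called (adjusted p = 0.00706, with a range of 0.00706 to 0.497 over its alternatives).

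Ratios of counts within a library are free of the scaling between libraries, and gene length drops out when the same ratio is compared across libraries. Counts of *tp53inp1* per *mdm2* count were 0.701 and 0.708 in controls against 0.72 and 0.682 in SYP-3343, so the groups overlapped. *phlda3* was close to *mdm2* as well, at 0.2595 and 0.2725 against 0.2592 and 0.2509, though both exposed libraries lay just below both controls. *cdkn1a* per *mdm2* count was higher in both exposed libraries, at 0.197 and 0.191 against 0.147 and 0.136, and so was *rps27l*, at 0.69 and 0.769 against 0.512 and 0.419. *ccng1* stood slightly higher, at 14.8 and 16.4 against 13.99 and 13.07. In contrast, *mdm4* per *mdm2* count was lower in both, at 0.863 and 0.884 against 1.05 and 1.18 in controls. *fdxr* stood at 0.0669 and 0.0631 against 0.119 and 0.127. *zmat3* stood at 0.0234 and 0.013 against 0.0339 and 0.0509. The ratios are given as values and were not tested.

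**Figure D2:**
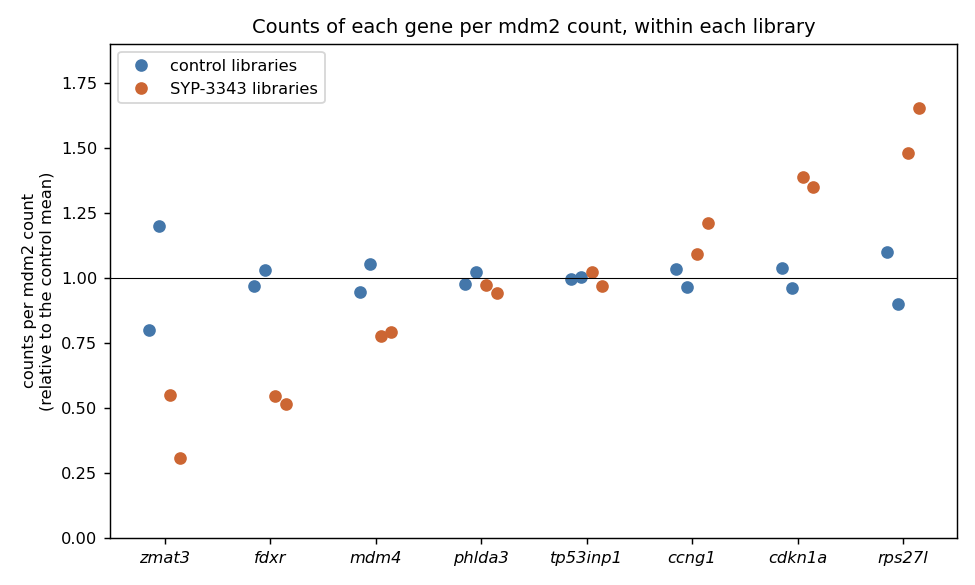
Counts of each gene per *mdm2* count within the same library, divided by the mean of the control libraries (vertical axis, from 0; the line marks the control mean), for 2 control and 2 SYP-3343 libraries. *tp53inp1* and *phlda3* stay near the line. In both exposed libraries *cdkn1a*, *rps27l* and, less far, *ccng1* lie above it and *mdm4*, *fdxr* and *zmat3* below.

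Family relatives of these genes, most of them not standard p53 targets, were set beside them. Of 17 relatives tested, 4 rose (23.5%), 1 fell (5.88%) and 12 did not pass, with a median log2 fold change of 0.13, against 16.6% and 15.3% of all genes. Of the inhibitors in the family of *cdkn1a*, *cdkn1ca* rose by 0.68 ± 0.090 (adjusted p = 4.82e-06) and *CDKN1B* copy ENSDARG00000054271 by 0.35 ± 0.095 (adjusted p = 0.00709). The latter call ended without SYP-3343 replicate 1 (0.24, adjusted p = 0.151) and with library size alone (0.024, adjusted p = 0.874), the lowest adjusted p over its alternatives being 0.00207. *CDKN1B* copy ENSDARG00000029018 (-0.15 ± 0.10) and *cdkn1cb* (0.058 ± 0.21) did not pass. *CCNG2*, the sister of *ccng1*, stood at 0.12 ± 0.092 (adjusted p = 0.327) and *tp53inp2*, the sister of *tp53inp1*, at 0.20 ± 0.097 (adjusted p = 0.135). Of the *phlda3* family, *PHLDA2* stood at 0.20 ± 0.12 (adjusted p = 0.201) and *PHLDA1* at -0.50 ± 0.21 (adjusted p = 0.0706). *PHLDA1* was called lower without SYP-3343 replicate 2 (-0.94, adjusted p = 0.00269, the lowest of a range up to 0.691), with upper-quartile factors (-0.57, adjusted p = 0.0373), with the replicate block (-0.51, adjusted p = 0.0396) and with library size alone (-0.84, adjusted p = 0.00391).

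Of the relatives of *zmat3*, *ZMAT4* copy ENSDARG00000092987 fell by 0.89 ± 0.25 on the log2 scale (adjusted p = 0.00826), a call that ended without SYP-3343 replicate 2 (-0.57, adjusted p = 0.15, the highest over its alternatives, the lowest being 0.000644). *ZMAT2* (0.027), *zmat5* (0.023) and *ZMAT4* copy ENSDARG00000061419 (0.093) did not pass. Neither did the ferredoxins that take electrons from the *fdxr* product, *fdx1* (0.22 ± 0.11), *fdx1b* (0.26 ± 0.48) and *FDX2* (0.13 ± 0.15), of which *fdx1* was called higher without control replicate 1 (0.35, adjusted p = 0.0202). Whether a target and its relative differed was not tested.

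**Figure D3:**
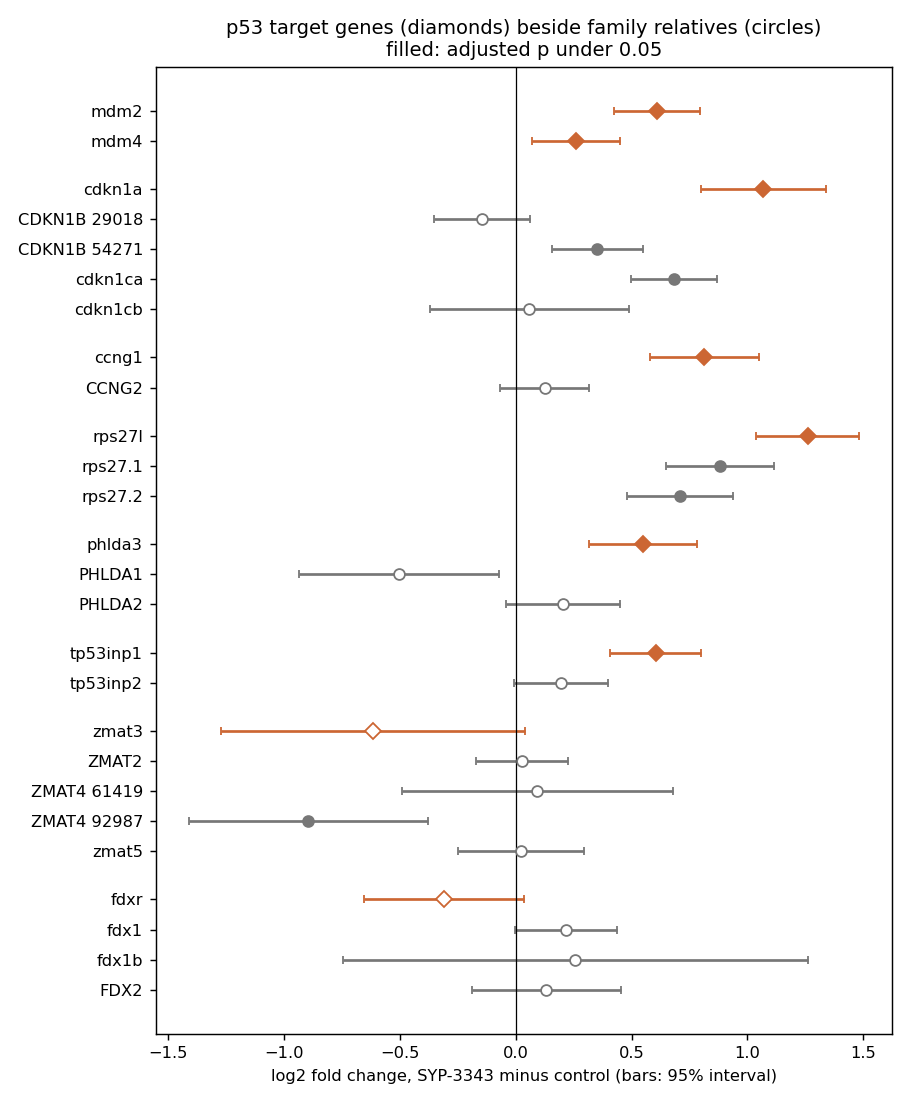
Log2 fold change, SYP-3343 minus control, with 95% intervals (horizontal axis) for the 9 p53 targets (diamonds) and 17 family relatives (circles); filled marks passed an adjusted p of 0.05, and figures after a name are the end of its Ensembl identifier. The 7 called targets lie to the right of 0 (with library size alone *mdm4* turns, to -0.074), and 12 of the 17 relatives are open circles.

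Beyond the 9, 80 gene models of other p53 targets, mostly known from human cells, were all tested. Of these 25 rose (31.2%), 12 fell (15%) and 43 did not pass, with a median log2 fold change of 0.092, against 16.6% and 15.3% of all genes. With library size alone 11 rose (13.8%) and 31 fell (38.8%), against 6.20% and 41.4% of all genes. Among the leading genes by adjusted p were *sesn2*, a brake on the growth kinase mTORC1, whose mean level was 11.6 CPM in controls and 66.8 CPM after exposure (2.51 ± 0.11, adjusted p = 2.9e-13), and the stress transcription factor gene *ATF3* (2.08 ± 0.11, adjusted p = 1.01e-11). Both are also known targets of ATF4, the factor of the integrated stress response. The antiproliferative gene *BTG2* rose as well (0.85 ± 0.093, adjusted p = 4.34e-07). *PANK1* copy ENSDARG00000008192 (-0.98 ± 0.12), a kinase of coenzyme A synthesis, and the LIM domain gene *FHL2* copy ENSDARG00000003991 (-1.80 ± 0.23) were the leading falls (adjusted p = 2.23e-06 and 2.75e-06). Of their other copies, named after their values were seen, *PANK1* copy ENSDARG00000010098 fell (-0.56 ± 0.094, adjusted p = 9.93e-05) and *FHL2* copy ENSDARG00000042018 did not pass (0.26 ± 0.12, adjusted p = 0.108). The latter was called higher without control replicate 1 (adjusted p = 0.00579) and without SYP-3343 replicate 2 (adjusted p = 0.034), and its sign turned with library size alone (-0.072).

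Further targets were picked by their role after their values were seen. Among genes of cell death, the death receptor gene *fas* rose from 19 and 12 counts in controls to 132 and 92 in SYP-3343 (3.26 ± 0.41, adjusted p = 3.19e-06), and *bbc3*, which encodes Puma, from 4.23 to 10.3 CPM (1.28 ± 0.17, adjusted p = 6.56e-06). *pmaip1*, which encodes Noxa, rose by 0.78 ± 0.22 (adjusted p = 0.00792) but not without control replicate 2 (adjusted p = 0.071), without SYP-3343 replicate 1 (adjusted p = 0.119) or with library size alone (adjusted p = 0.114), the lowest over its alternatives being 0.00192. *APAF1*, the scaffold that activates caspase 9, rose by 0.51 ± 0.11 (adjusted p = 0.000762), though not with library size alone (0.18, adjusted p = 0.241). The pore-forming genes *BAX* (0.10 ± 0.095, adjusted p = 0.442) and *baxb* (0.12 ± 0.19, adjusted p = 0.676) did not pass. Neither did other genes of the list tied to cell death, *pidd1* (0.41 ± 0.23, adjusted p = 0.183), *bida* (-0.0020), *EI24* (0.019), *CDIP1* (0.13), *DRAM1* (0.037) and *tnfrsfa* (-0.19). *PERP*, tied to cell death as well, rose by 0.23 ± 0.089, near the threshold (adjusted p = 0.0481).

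Growth arrest genes rose in both copies of *GADD45A*, by 0.97 ± 0.12 for copy ENSDARG00000104571 (adjusted p = 2.81e-06) and by 0.83 ± 0.15 for copy ENSDARG00000043581 (adjusted p = 0.00018). So did *btg3* (0.73 ± 0.10, adjusted p = 1.09e-05) and *BTG1* (0.64 ± 0.095, adjusted p = 2.01e-05). Repair genes went both ways. Others of the list tied to repair did not pass, *PCNA* (0.072 ± 0.11, adjusted p = 0.675), *RRM2B* (-0.026 ± 0.098, adjusted p = 0.871) and *ASCC3* (0.22 ± 0.10, adjusted p = 0.106). *DDB2* (0.40 ± 0.12, adjusted p = 0.014) and *XPC* (0.38 ± 0.11, adjusted p = 0.0079), which recognize damaged bases in nucleotide excision repair, rose. Both calls ended without SYP-3343 replicate 1 (adjusted p = 0.19 for *DDB2* and 0.0703 for *XPC*) and with library size alone (0.686 and 0.747), and that of *DDB2* also without control replicate 2 (0.0615). The lowest adjusted p over their alternatives was 0.00832 for *DDB2* and 0.00639 for *XPC*. *POLH*, a polymerase that copies past lesions, fell by 0.59 ± 0.17 (adjusted p = 0.0127, 0.000573 to 0.085 over its alternatives), but not without SYP-3343 replicate 1 (0.085). *PPM1D*, a phosphatase that switches p53 signalling off, fell in copy ENSDARG00000021380 (-0.55 ± 0.12, adjusted p = 0.00161) and stood at -0.016 ± 0.091 in copy ENSDARG00000009273. *SESN1* (0.19 ± 0.098, adjusted p = 0.152), the sestrin most often tied to p53, did not pass, except without control replicate 1 (0.28, adjusted p = 0.0494).

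**Figure D4:**
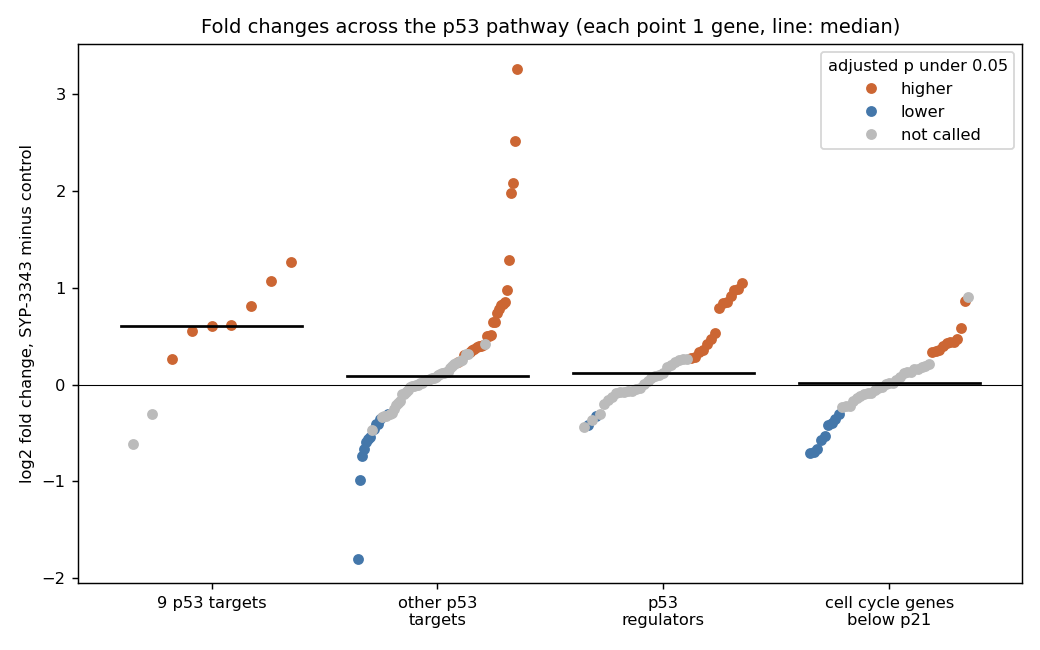
Log2 fold change, SYP-3343 minus control (vertical axis), of each tested gene of 4 lists, sorted within its list, with the median as a line. The median is 0.60 for the 9 p53 targets, 0.092 for the other targets, 0.12 for the regulators and 0.016 for cell cycle genes, and points are coloured by whether they rose, fell or did not pass.

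Genes that act on p53 were 41 gene models, all tested, of which 14 rose (34.1%), 2 fell (4.88%) and 25 did not pass, with a median of 0.12, against 16.6% and 15.3% of all genes. With library size alone 7 rose (17.1%) and 18 fell (43.9%), the latter near the 41.4% of all genes under that scaling, of which 6.20% rose. Of the risers 5 are ribosomal protein genes, whose products bind Mdm2 in mammalian cells when ribosome assembly stalls, and all 5 such gene models on the list rose. The ribosomal protein genes *rps27.1* (0.88 ± 0.11) and *rps27.2* (0.71 ± 0.11), which are not on this list, rose too. *RPL11* went from 948.5 to 1957.8 CPM (1.05 ± 0.13, adjusted p = 2e-06), *RPL5* copy ENSDARG00000015862 rose by 0.98 ± 0.13 (adjusted p = 4.17e-06) and copy ENSDARG00000020197 by 0.84 ± 0.13 (adjusted p = 2.71e-05), *RPS7* by 0.98 ± 0.13 (adjusted p = 4.89e-06) and *RPL23* by 0.91 ± 0.12 (adjusted p = 6.9e-06). Of the other 36 regulators 9 rose and 2 fell, with a median of 0.081. Their leading risers were *TP53BP2* copy ENSDARG00000009136 (0.85 ± 0.090, adjusted p = 2.75e-07), whose product steers p53 to cell death genes, and *SIRT1* (0.79 ± 0.093, adjusted p = 1.28e-06), a deacetylase that acts on p53. *TP53BP2* copy ENSDARG00000054858 did not pass (-0.077 ± 0.098, adjusted p = 0.595) and was called lower with library size alone (-0.41, adjusted p = 0.00723).

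Among damage signalling kinases, named after their values were seen, *ATM* stood at 15.8 CPM in controls and 21.9 CPM in SYP-3343 (0.47 ± 0.12, adjusted p = 0.0053), a rise that ended without control replicate 1 (0.305, adjusted p = 0.0609) and with library size alone (0.13, adjusted p = 0.456, with 4.84e-05 as the lowest over its alternatives). *ATR* rose by 0.36 ± 0.11 (adjusted p = 0.0201), and this call ended without control replicate 1 (adjusted p = 0.0591), without SYP-3343 replicate 2 (adjusted p = 0.243), with upper-quartile factors (adjusted p = 0.0558) and with library size alone (adjusted p = 0.887, with 0.0159 as the lowest). The checkpoint kinase genes *CHEK1* (-0.30 ± 0.15, adjusted p = 0.136) and *chek2* (-0.44 ± 0.17, adjusted p = 0.0534) did not pass, and *chek2* was called lower with upper-quartile factors (adjusted p = 0.0249), with the legacy fit (adjusted p = 0.0486) and with library size alone (adjusted p = 0.00198, 0.00198 to 0.204 over its alternatives). *CHEK1* was called lower with library size alone (-0.64, adjusted p = 0.00334). Also named after their values were seen were *MRE11*, *RAD50*, *nbn*, *TP53BP1*, *COP1* and *npm1a*. *MRE11* fell by 0.41 ± 0.15 (adjusted p = 0.0428), a call that ended with DESeq2, under which 0 regulators fell. *RAD50* (-0.031), *nbn* (-0.081) and *TP53BP1* (0.26, adjusted p = 0.0543) did not pass. *COP1*, another ubiquitin ligase of p53, fell by 0.32 ± 0.11 (adjusted p = 0.0348). That call ended without control replicate 2 (-0.21, adjusted p = 0.212), without SYP-3343 replicate 2 (-0.19, adjusted p = 0.36), with no low-count filter (adjusted p = 0.0567) and with DESeq2 (adjusted p = 0.0809), the lowest being 0.000904. The nucleolar gene *npm1a* rose by 0.27 ± 0.090 (adjusted p = 0.0257). That call ended without control replicate 2 (adjusted p = 0.147), without SYP-3343 replicate 1 (adjusted p = 0.0889), without SYP-3343 replicate 2 (adjusted p = 0.108) and with upper-quartile factors (adjusted p = 0.0907), and the value was -0.063 with library size alone (adjusted p = 0.582, with 0.0095 as the lowest).

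Cell cycle genes went both ways. The list mixes genes that p21 holds down through the retinoblastoma family when it acts with other cell cycle genes. Among the latter are that family itself (*RB1*, *RBL1* and *RBL2*) and *CCND1*, *CCND2*, *CDK4* and *CDK6*. The counts of the list are therefore no measure of p21 action. Of 45 gene models tested 10 rose (22.2%), 9 fell (20%) and 26 did not pass, with a median of 0.016, against 16.6% and 15.3% of all genes. These counts moved with a library left out, and with library size alone 1 rose (2.22%) and 23 fell (51.1%), against 6.20% and 41.4% of all genes. By adjusted p the leading falls were *MCM3* (-0.66 ± 0.095, adjusted p = 1.6e-05) and *MCM6* copy ENSDARG00000057683 (-0.54 ± 0.097, adjusted p = 0.000219), subunits of the replicative helicase, and *TYMS* (-0.70 ± 0.11, adjusted p = 3.28e-05), which makes thymidylate. Other genes of these roles on the list, named after their values were seen, went both ways. Of further helicase subunits, *MCM2* (-0.40 ± 0.10, adjusted p = 0.00435) and *MCM5* (-0.41 ± 0.098, adjusted p = 0.00264) fell and *MCM7* (0.42 ± 0.097, adjusted p = 0.00187) rose. *MCM4* (-0.14 ± 0.11, adjusted p = 0.38) and *MCM6* copy ENSDARG00000033231 (0.90 ± 0.67, adjusted p = 0.333), the latter with only 8 to 15 counts, did not pass. Of the ribonucleotide reductase genes, which supply nucleotides, *RRM2* copies ENSDARG00000020711 (0.34 ± 0.097, adjusted p = 0.0105) and ENSDARG00000078069 (0.47 ± 0.11, adjusted p = 0.00303) rose and *RRM1* (0.021 ± 0.12, adjusted p = 0.915) did not pass. Several of these calls changed when 1 library was left out, and such fits called fewer of all genes too. The groups of *MCM2*, *MCM7* and both *RRM2* copies did not overlap, as in 32.2% (higher) and 33.7% (lower) of all genes tested. *MCM2* lost its call without SYP-3343 replicate 1 (adjusted p = 0.0873), and *MCM7* (0.0639) and *RRM2* copy ENSDARG00000078069 (0.167) lost theirs without SYP-3343 replicate 2. *RRM2* copy ENSDARG00000020711 lost its call without control replicate 1 (0.151), and *MCM4* was called lower without SYP-3343 replicate 2 (-0.35, adjusted p = 0.0305). With library size alone *MCM7* (0.458) and both *RRM2* copies (0.982 and 0.351) lost their calls, and *MCM4* (0.00195) and *RRM1* (0.0264) were called lower. The kinase gene *CDK2*, a target of p21 as a protein, fell by 0.57 ± 0.11 (adjusted p = 0.000448). *CCND1*, a cyclin of early G1, rose from 201 to 364.9 CPM (0.86 ± 0.10, adjusted p = 1.18e-06). Both copies of *CCND2*, named after their values were seen, fell. Copy ENSDARG00000051748 stood at -0.30 ± 0.10 (adjusted p = 0.0282) and copy ENSDARG00000070408 at -0.70 ± 0.20 (adjusted p = 0.0111). *CCNE2* rose by 0.58 ± 0.11 (adjusted p = 0.000209), though not with library size alone (0.25, adjusted p = 0.0981). *CCNE2* lies next to *tp53inp1* in the RefSeq annotation of the later assembly GRCz12tu. Of genes tied to mitosis, named after their values were seen, *CCNA2* (0.44 ± 0.099), *aurka* (0.44 ± 0.10), *AURKB* (0.35 ± 0.10) and *bub1* (0.35 ± 0.11) rose (adjusted p = 0.00171, 0.00191, 0.00948 and 0.0151). With library size alone these rises ended, *CCND1* being the only riser of the list. *CDK1* (0.081), *CCNB1* (0.13), *CCNB2* (0.047), *plk1* (0.13), *CDC20* (0.19), *TOP2A* (0.22), *mki67* (-0.038), *BIRC5* (0.016) and *bub1bb* (0.16) did not pass.

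Over the 4 libraries, the genes most like *mdm2* were *ERP44*, *fastkd2* and *ecscr*, out of 16231 compared. Their root mean square distance to *mdm2* was 0.00479, 0.00817 and 0.0118 on log2 CPM after each gene's mean was subtracted. *ERP44*, which encodes a chaperone of the early secretory pathway, stood at 61.2 and 60.6 CPM in controls and at 95.3 and 90.3 CPM in SYP-3343. Those most like *cdkn1a* were *XBP1*, *SLC22A18* and *PMPCB*, with distances of 0.0188, 0.0244 and 0.0296. *XBP1*, a transcription factor gene of the unfolded protein response, stood at 334.3 and 294.5 CPM in controls and at 670.2 and 626 CPM in SYP-3343. With 4 libraries in 2 groups this likeness describes little beyond an equal fold change and an equal order within groups.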

How the data were processed

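The authors deposited 1 table of unnormalized, whole-number read counts for each gene in the 2 control and 2 SYP-3343 libraries. Per the submitters' processing notes, the tools include featureCounts 1.6.2, HTSeq, DESeq2 1.14.1, HISAT2 and TopHat2, with the build GRCz11. The sources used here give neither their roles nor the annotation or strand setting. Coordinates, transcript lengths and sequences were not used here, so levels are not ranked between genes. In RefSeq's GRCz12tu annotation the span of 1 of the 9 genes, *zmat3*, overlaps another gene, a long non-coding RNA, and counting without strand could mix the 2. The p53 gene itself is not analysed here.

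Symbols came from a table of Ensembl names. Other p53 targets were 88 symbols (60 matched by symbol, 20 without the paralog letter, 8 unmatched), regulators 41 (1 unmatched), cell cycle genes 42 (0 unmatched), relatives 18 (1 unmatched) and tissue markers 29 (3 unmatched), and a symbol can match several gene models. The 9 genes and all lists were chosen with earlier results of these data known.

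Genes were kept by edgeR's filterByExpr, scaled by TMM, and compared by its quasi-likelihood F test, two-sided (Benjamini-Hochberg over 22647 genes). SE is the log2 fold change divided by the root of F. All 9 genes and all listed gene models passed the filter. By rule, the genes named were the 9 genes, all relatives, up to 6 genes of each other list with the smallest adjusted p, and the 3 genes nearest to *mdm2* and *cdkn1a* (mean log2 CPM of at least 1, prior count 2). Further genes, other copies and tissue markers were named after their values were seen, which the text says beside most but not all of them. A gene that this rule names among the other targets is not reported here. The code was tested on simulated data. Alternatives were scaling by upper-quartile or RLE factors or by library size alone, keeping all genes or those with CPM from 1 upwards in 2 or more libraries, DESeq2, limma-voom, robust dispersion, the replicate block, leaving out the 20 most abundant genes or each library, an adjusted p of 0.01 and, added after the data were seen, the legacy fit. Where 1 library remained in a group, its spread was taken to equal that of the other group. A count of 0 would allow up to 3 counts, or 0.0508 to 0.065 CPM, covering counting error only. R 4.3.3, edgeR 4.0.16, limma 3.58.1, DESeq2 1.42.0, pandas 2.3.3, numpy 2.4.6 and matplotlib 3.10.9 were used.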

Additional observations from a re-analysis of the deposited data

How the results depend on the processing

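Over 16 alternatives, 5 to 7 of the 9 p53 targets were called higher, and 5 (*mdm2*, *cdkn1a*, *ccng1*, *rps27l* and *tp53inp1*) were called higher in each of them. Over all genes the number that rose ran from 1405 with library size alone to 3860 with RLE factors, of 22647 tested in each. The number of the 9 called lower was 0 under the main setting and 2 with library size alone, against 41.4% of all genes. It also moved with a library left out. With library size alone, 11 of the other targets rose and 31 fell, 7 regulators rose and 18 fell, and 1 cell cycle gene rose and 23 fell. Of the relatives 3 rose (17.6%) and 4 fell (23.5%), against 6.20% and 41.4% of all genes under that scaling. The 2 regulators that fell became 4 with upper-quartile factors, 1 with no low-count filter, 1 with limma-voom, 0 with DESeq2 and 0 at an adjusted p of 0.01. Over all genes 3455 fell under the main setting, against 4462, 3141, 3309, 2606 and 2039 in the same order. The number of regulators that fell also moved with a library left out. With a library left out, 4 to 12 cell cycle genes rose and 5 to 10 fell. The labels do not tie equal replicate numbers to a shared clutch, and deviations of same-numbered libraries did not go together (r = -0.0274 across genes). With the replicate block, 7 of the 9 targets were still called higher and 0 lower, and the number of relatives that fell went from 1 to 2. Over all genes 3763 rose and 3485 fell with that block, against 3770 and 3455 under the main setting.

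Signs turned for genes with small values. With library size alone the log2 fold change was -0.074 for *mdm4*, -0.21 for *CCNG2*, -0.28 for *cdkn1cb*, -0.13 for *PHLDA2*, -0.14 for *tp53inp2*, -0.305 for *ZMAT2*, -0.24 for *ZMAT4* copy ENSDARG00000061419, -0.309 for *zmat5*, -0.12 for *fdx1*, -0.077 for *fdx1b*, -0.21 for *FDX2*, -0.23 for *BAX*, -0.21 for *baxb*, -0.14 for *SESN1*, -0.32 for *RRM1*, -0.072 for *FHL2* copy ENSDARG00000042018 and -0.063 for *npm1a*. Called lower with library size alone were *ZMAT2* (adjusted p = 0.025), *CDKN1B* copy ENSDARG00000029018 (-0.48, adjusted p = 0.00177) and *PPM1D* copy ENSDARG00000009273 (-0.35, adjusted p = 0.00658). With upper-quartile factors the log2 fold change was -0.011 for *cdkn1cb*, -0.043 for *ZMAT2*, -0.049 for *RRM1* and -0.046 for *zmat5*. With a library left out the range was -0.030 to 0.14 for *cdkn1cb*, -0.040 to 0.096 for *ZMAT2*, -0.095 to 0.13 for *zmat5*, -0.15 to 0.37 for *FDX2*, -0.35 to 0.049 for *MCM4*, -0.17 to 0.19 for *RRM1* and -0.067 to 0.032 for *PPM1D* copy ENSDARG00000009273. Library size alone leaves in any difference in composition between the groups. It moved the log2 fold change of each main p53 target by -0.331 to -0.334. The median over all genes tested went from -0.0133 to -0.347. The genes listed above as turning under that scaling had positive main values smaller than such a shift, the largest being 0.27 for *npm1a*. Why signs turned with upper-quartile factors or with a library left out was not tested. Depth limits *zmat3*, with 44 to 180 counts, and *fas* in controls, with 12 and 19 counts. It also limits *MCM6* copy ENSDARG00000033231, with 8 to 15 counts, *fdx1b*, with 23 to 28, and *DRAM1*, with 41 to 71.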
